A study of Homo sapiens with 6 samples.

Results

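AMP-activated protein kinase (AMPK) is the energy sensor examined here, through 10 genes that encode its subunits and the kinases and adaptors that switch it on. They were taken by symbol from a table of 57905 gene identifiers: the catalytic α subunits PRKAA1 and PRKAA2, the β subunits PRKAB1 and PRKAB2, the γ subunits PRKAG1 and PRKAG2, the upstream kinases STK11 and CAMKK2, and the STK11 partners STRADA and CAB39. The set was selected on 1 measured value, the fold change of PRKAA1 between these same libraries, so PRKAA1 is described with no test. The other 9 genes entered by their function. All 10 passed the filter on low values. The samples were 3 libraries of A549, an established human lung adenocarcinoma line, transfected with miR-19a at 25 nM using a lipid reagent, and 3 libraries of the same cells given a negative control microRNA (miR-NC) at that concentration, with the harvest given as 24 h. Poly(A)-selected RNA was sequenced. Separate cultures are not named in the labels, and the p-values therefore reflect only how much these 6 samples vary, which may be technical variation.

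AMPK works as a complex of an α, a β and a γ subunit. The γ subunit binds AMP, ADP and ATP, the β subunit holds the complex together and carries a glycogen-binding module, and the α subunit is the kinase. Full activity needs phosphorylation of the α activation loop, by LKB1 (the product of STK11, active with STRADA and CAB39) when energy is low or by CAMKK2 when calcium rises. Active AMPK restrains lipid and protein synthesis and favours catabolism. As background, A549 is known for an inactivating mutation of STK11, so STK11 transcript levels do not report on LKB1 protein in this line.

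miR-19a lowers messenger RNAs whose 3′ untranslated region (UTR) pairs with its seed, bases 2 to 8. Its mature sequence is shown first with the seed in capitals, followed by the windows of the 6 matches of 7 nt or more in members, with the match in capitals. The letters of the microRNA come from RefSeq (GRCh38.p14), and those of the windows from GENCODE v29 transcripts (GRCh38), written 5′ to 3′ along the transcript.
miR-19a-3p (23 nt, chr13:91350939-91350961, plus strand): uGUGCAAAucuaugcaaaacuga
PRKAA1 8mer (chr5:40762637-40762666, minus strand): ttggaatgcaaTTTGCACAgggattggaac
PRKAA2 7mer-m8 (chr1:56715208-56715236, plus strand): cctaattaatgTTTGCACcatatgaaact
PRKAB2 7mer-m8 (chr1:147158267-147158295, minus strand): aagtatcattcTTTGCACcaaatgttaac
CAB39 7mer-A1 (chr2:230818868-230818896, plus strand): gctgctgctgcTTGCACActagggcacat
CAB39 7mer-m8, upstream (chr2:230819033-230819061, plus strand): agacctatgtgTTTGCACccatctttgtt
CAB39 7mer-m8, downstream (chr2:230820051-230820079, plus strand): aagtaactgatTTTGCACcacttttttgt

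PRKAA1 was the member with the 8mer TTTGCACA, the match that covers bases 2 to 8 and ends in an A. The 8mer lies at position 123 of a 3′ UTR of 3399 nt in PRKAA1-204, 1 of 3 annotated coding transcripts of the gene, and a 6mer (TTGCAC) lies at position 2478. PRKAA1-202, the transcript with the longest coding sequence, ends 8 nt after its stop codon and holds no match in that stretch, so the 8mer is missed when that transcript alone is searched. The deposited counts and FPKM imply a gene length of 6558 to 6568 nt for PRKAA1, against 6563 nt for the union of its GENCODE exons, which includes the long 3′ UTR. That is the annotated length behind the FPKM and does not show which PRKAA1 transcript the cells expressed, which was not measured. The coding sequence of PRKAA1-204 also carries a 7mer-A1 (TTGCACA), at position 1670 of 1680.

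PRKAA2, PRKAB2 and CAB39 had a 7mer-m8 (TTTGCAC) as their strongest match. In PRKAA2 it lies at position 7506 of a 3′ UTR of 7622 nt, beside a 6mer at position 25. In PRKAB2 it lies at position 1281 of 4459 nt, and in CAB39 7mer-m8 matches lie at positions 340 and 1358 of 2371 nt, after a 7mer-A1 at 175. The CAB39 matches at 175 and 340 lie in the 3′ UTR of 2 of 4 annotated coding transcripts, and that at 1358 in 1 of 4. The PRKAA2 and PRKAB2 matches lie in every annotated coding transcript of those genes. PRKAB1, PRKAG1, PRKAG2, STK11, CAMKK2 and STRADA held none of the 4 match classes in any annotated 3′ UTR of a coding transcript. Matches were searched on the transcript strand, and nested classes were counted once, as the longest. Over the longest 3′ UTR of each of 18686 protein-coding genes in the table, 6.18% had an 8mer as strongest match, 7.58% a 7mer-m8, 5.64% a 7mer-A1 and 9.33% a 6mer. A match is a description of sequence and was not measured as a site of binding.

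**Figure D1:**
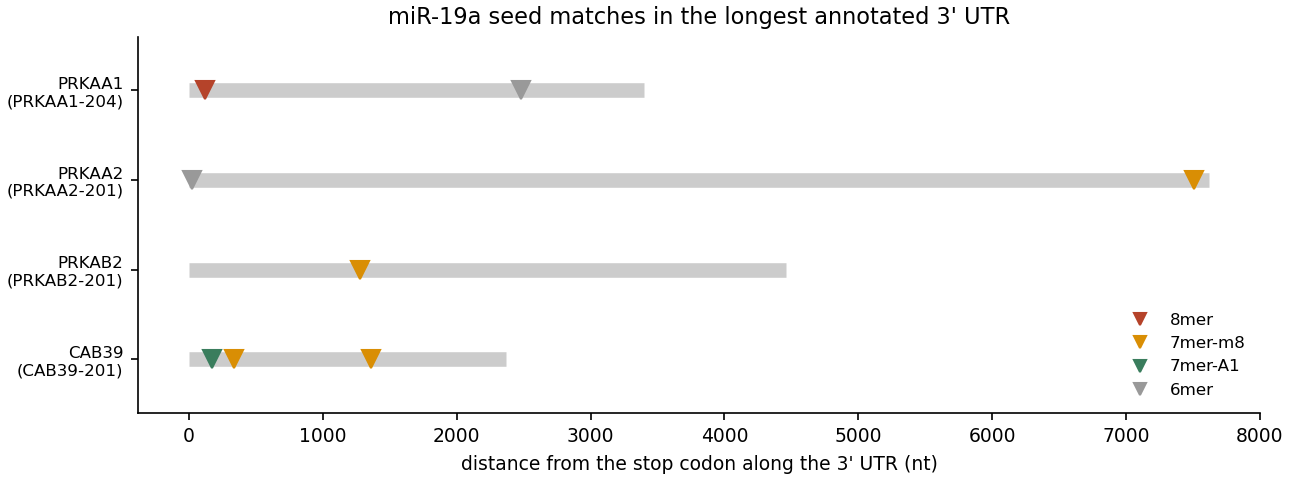
Grey bars are the longest annotated 3′ UTR of the 4 members with a miR-19a match, drawn by distance in nt from the stop codon, and triangles mark matches coloured by class. The 8mer of PRKAA1 lies at position 123, near the stop codon, and the 7mer-m8 of PRKAA2 at position 7506, near the far end.

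Between 15699037 and 17957932 reads were counted per library. Of 12452 genes tested with edgeR's quasi-likelihood test, 6023 passed an adjusted p of 0.05, 3095 of them higher and 2928 lower in miR-19a. The 6 epithelial markers summed to 1850 to 1930 FPKM in miR-19a libraries and 1720 to 1760 FPKM in miR-NC libraries. Mean FPKM in miR-19a and miR-NC were 632 and 528 for KRT8, 668 and 520 for KRT18 and 60.4 and 46.1 for KRT19, but 518 and 635 for KRT7, 5.62 and 6.38 for CDH1 and only 0.763 and 0.603 for EPCAM. The 6 alveolar type II markers summed to 6.53 to 7.69 FPKM in miR-19a libraries and 6.33 to 7.3 FPKM in miR-NC libraries, nearly all from ABCA3 at 6.67 and 6.2 FPKM, with NAPSA at 0.417 and 0.413 FPKM. The other 4 were near 0, among them SFTPC at 0.00667 and 0.0133 FPKM and NKX2-1 at 0 and 0.0133 FPKM. The summed level of 8 fibroblast markers was 3.03 to 3.7 FPKM in miR-19a libraries and 1.74 to 2.05 FPKM in miR-NC libraries, mostly from COL1A1 at 2.57 and 0.903 FPKM. THY1 stood at 0.613 and 0.89 FPKM, LUM at 0.0833 and 0.0133 FPKM and COL3A1 at 0.0667 and 0.0233 FPKM. COL1A2 (0.00667 and 0.00333 FPKM), DCN (0 and 0.00333 FPKM), PDGFRA (0.0233 and 0.02 FPKM) and PDGFRB (0.0233 FPKM in both groups) were at or near 0. Immune markers summed to 1.51 to 1.93 FPKM against 1.11 to 1.49 FPKM, mostly CD14, and the 3 endothelial markers found to at most 0.05 FPKM in any library.

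The catalytic α1 subunit was the member that differed most. PRKAA1 (ENSG00000132356; chromosome 5, 40759379 to 40798374, minus strand, GRCh38) stood at 5.39, 5.46 and 5.63 FPKM in miR-19a libraries, against 12.45, 11.88 and 12.14 FPKM in miR-NC libraries. FPKM account for depth and for an annotated gene length, and levels of different genes are compared here on that scale. The transcripts expressed were not measured, so comparisons across genes are approximate. The 3 miR-19a libraries lay close together and far below every miR-NC library. On counts the log2 fold change was -1.13 (SE 0.055), which puts the miR-19a level at 45.7% of the miR-NC level. By fold change PRKAA1 ranked 95th from the lowest among 12452 genes, and 113 genes (0.907%) passed the threshold with a fall of at least 1 on the log2 scale. In bulk RNA, fewer cells with a transcript and less transcript per cell cannot be told apart.

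PRKAA2 (ENSG00000162409), which encodes the other catalytic subunit, α2, differed in the opposite direction from a much lower level. It stood at 1.85, 1.98 and 1.79 FPKM in miR-19a libraries, against 1.66, 1.61 and 1.56 FPKM in miR-NC libraries, from 229 to 319 counts a library. The groups did not overlap, although their nearest values were 1.79 and 1.66 FPKM. Its log2 fold change was 0.23 (SE 0.089, edgeR adjusted p = 0.0242). Leaving out miR-19a replicate 2 ended the call (0.19, edgeR adjusted p = 0.126), as did leaving out miR-NC replicate 3 (0.21, edgeR adjusted p = 0.0752). DESeq2 (adjusted p = 0.074) and limma on log2(FPKM + 1) (0.14, adjusted p = 0.126) did not call it either.

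**Figure D2:**
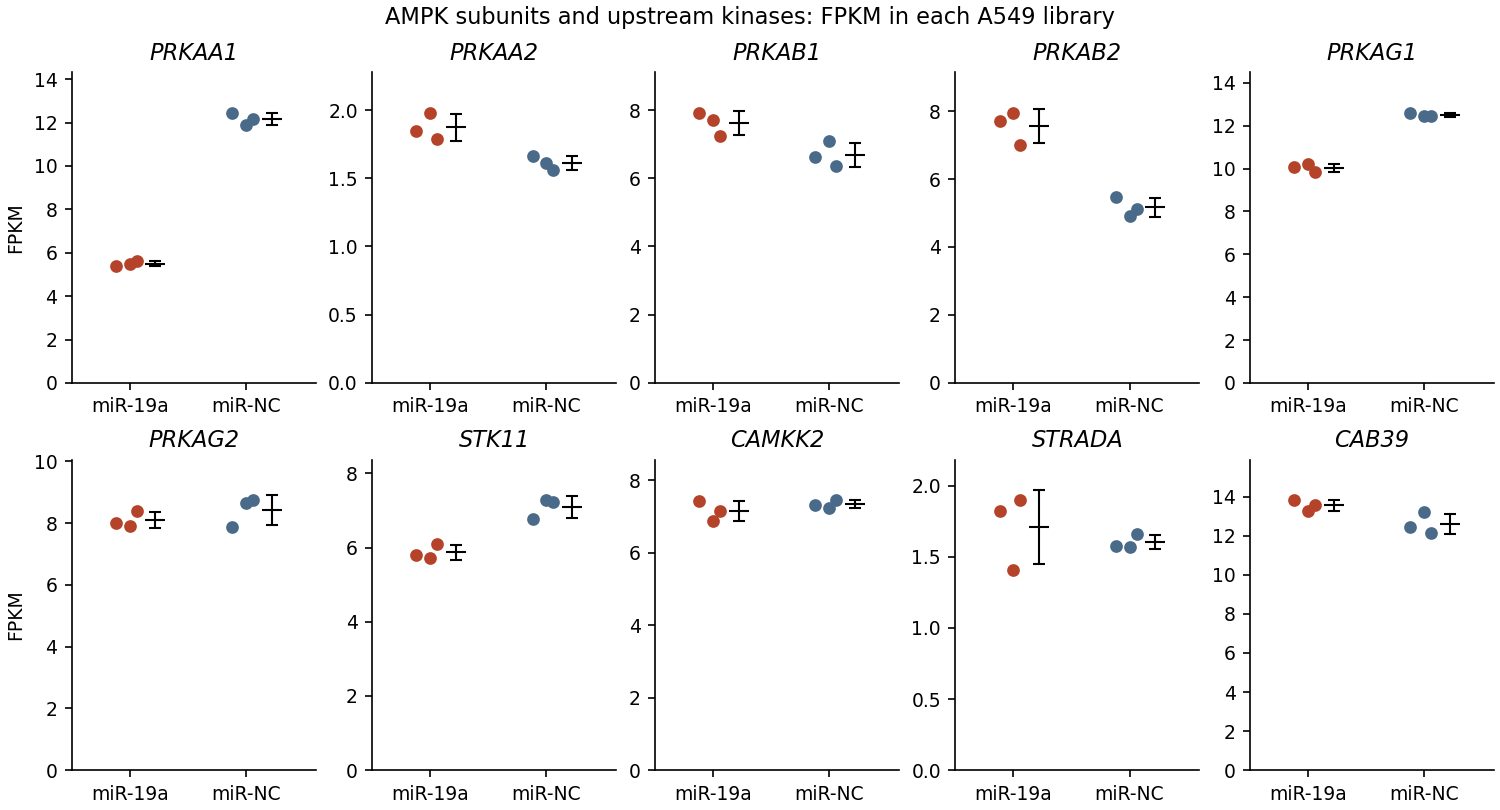
Each panel plots 1 gene, with FPKM on a linear axis from 0. Dots are the 3 miR-19a and 3 miR-NC libraries, and bars the mean ± SD. PRKAA1 lies between 5.39 and 5.63 FPKM in miR-19a and between 11.88 and 12.45 FPKM in miR-NC, and the groups of PRKAG2, CAMKK2 and STRADA overlap.

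Both β subunits rose. PRKAB2 (ENSG00000131791), the β2 isoform, stood at 7.71, 7.95 and 6.99 FPKM in miR-19a libraries, against 5.46, 4.91 and 5.12 FPKM in miR-NC libraries. Every miR-19a library was above every miR-NC library by more than the range within either group. The log2 fold change of 0.56 (SE 0.067, edgeR adjusted p = 6.9e-11) is 148% of the miR-NC level, and it occurred in a transcript with a 7mer-m8 in its 3′ UTR. PRKAB1 (ENSG00000111725), the β1 isoform with no match, stood at 7.92, 7.72 and 7.23 FPKM in miR-19a libraries, against 6.61, 7.08 and 6.37 FPKM in miR-NC libraries. Its groups were narrowly separate, and its log2 fold change was 0.20 (SE 0.06, edgeR adjusted p = 0.00366).

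Of the γ subunits PRKAG1 fell and PRKAG2 did not pass. PRKAG1 (ENSG00000181929), the γ1 isoform, stood at 10.06, 10.21 and 9.84 FPKM in miR-19a libraries, against 12.6, 12.45 and 12.43 FPKM in miR-NC libraries. The spread within each group was small beside the gap, with a log2 fold change of -0.30 (SE 0.056, edgeR adjusted p = 6.1e-06). In GENCODE v29 the antisense gene DDN-AS1 overlaps 12.7% of the 4184 nt of PRKAG1 exon bases. The deposited values imply a PRKAG1 length of 4555 to 4557 nt, so the overlap in the annotation used for counting is unknown. No source used here says if counting used strand, so PRKAG1 counts may include DDN-AS1 reads. PRKAG2 (ENSG00000106617), the γ2 isoform, stood at 8.01, 7.92 and 8.39 FPKM in miR-19a libraries, against 7.88, 8.65 and 8.75 FPKM in miR-NC libraries. These groups overlapped, and the log2 fold change was -0.04 (edgeR adjusted p = 0.6) with an approximate 95% interval of -0.15 to 0.07.

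**Figure D3:**
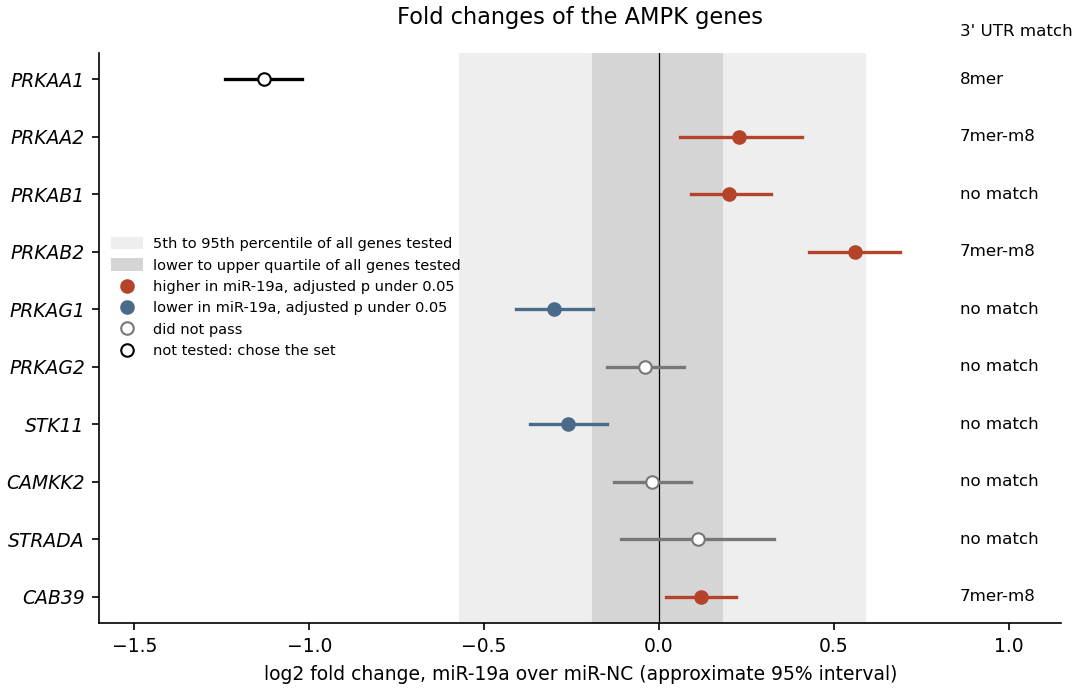
Log2 fold change of miR-19a over miR-NC for each member with its approximate 95% interval, the strongest 3′ UTR match at the right, and the spread of all 12452 genes as shading (quartiles -0.19 and 0.18). PRKAA1 at -1.13 lies outside the 5th to 95th percentile band of -0.57 to 0.59, and the other 9 lie between -0.30 and 0.56.

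STK11 (ENSG00000118046), which encodes LKB1, the kinase that activates AMPK under energy stress, fell. It stood at 5.8, 5.71 and 6.09 FPKM in miR-19a libraries, against 6.76, 7.28 and 7.24 FPKM in miR-NC libraries. All miR-19a libraries lay below all miR-NC libraries, with a log2 fold change of -0.26 (SE 0.055, edgeR adjusted p = 7.5e-05). CAMKK2 (ENSG00000110931), the calcium-dependent kinase of AMPK, stood at 7.42, 6.88 and 7.15 FPKM in miR-19a libraries, against 7.33, 7.25 and 7.46 FPKM in miR-NC libraries. Its groups overlapped, and its log2 fold change of -0.02 (edgeR adjusted p = 0.758) had an approximate 95% interval of -0.13 to 0.09.

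CAB39 and STRADA, the members that encode partners of LKB1, differed little. CAB39 (ENSG00000135932), the scaffold MO25α, stood at 13.83, 13.27 and 13.58 FPKM in miR-19a libraries, against 12.45, 13.2 and 12.16 FPKM in miR-NC libraries. The groups nearly touched, at 13.27 and 13.2 FPKM, and the log2 fold change was 0.12 (SE 0.051, edgeR adjusted p = 0.0448). This call ended without any 1 of 5 libraries, with adjusted p from 0.0555 without miR-19a replicate 2 to 0.184 without miR-NC replicate 3, and held only without miR-NC replicate 2 (0.0129). It also ended with library totals alone (0.0836), with DESeq2 (0.0942), with limma at either pseudocount (0.0928 and 0.0938) and with no filter (0.0664). STRADA (ENSG00000266173), the pseudokinase partner of LKB1, stood at 1.82, 1.41 and 1.9 FPKM in miR-19a libraries, against 1.58, 1.57 and 1.66 FPKM in miR-NC libraries, from 163 to 229 counts a library. miR-19a replicate 2 was below all miR-NC libraries and the other miR-19a libraries above them. Its log2 fold change was 0.11 (edgeR adjusted p = 0.436), with an approximate 95% interval of -0.11 to 0.33. In GENCODE v29 the protein-coding gene AC046185.1 covers 18.1% of the 10860 nt of STRADA exon bases on the same strand. The deposited values imply a STRADA length of only 6712 to 6732 nt. The overlap in the annotation used for counting is thus unknown, and STRADA counts are uncertain.

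Counted together, 6 of the 9 members other than PRKAA1 passed the test, 4 higher and 2 lower in miR-19a, beside 48.4% of all genes tested (24.9% higher and 23.5% lower). The count was 4, with 2 higher and 2 lower, with DESeq2, with limma, and when either miR-19a replicate 2 or miR-NC replicate 3 was left out. In each of these the lost calls were those of PRKAA2 and CAB39, both higher in miR-19a. Calls over all 12452 genes tested were fewer in these settings too. They numbered 5186 with DESeq2, and 5323 and 5308 with limma at pseudocounts of 1 and 0.1. Without miR-19a replicate 2 they numbered 5325, and without miR-NC replicate 3 they numbered 5620, against 6023 in the main fit. Groups did not overlap in CPM (library-scaled counts) for 6 of the 9, again 4 higher and 2 lower, beside 54.0% of all genes (27.6% higher and 26.4% lower). The median log2 fold change of the 9 was 0.11, beside -0.0045 for all genes tested. These counts describe the 9 genes and were not tested against other genes.

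The 3 members with a 7mer-m8 in the 3′ UTR, PRKAA2, PRKAB2 and CAB39, were all higher in miR-19a. Only the call of PRKAB2 held under all 14 alternative settings, while that of PRKAA2 held in 8 of 13 and that of CAB39 in 4 of 14. Among the 920 tested genes whose strongest match in the longest 3′ UTR was a 7mer-m8, 35.7% fell and 23.2% rose, with a median log2 fold change of -0.05. Among the 741 tested genes with an 8mer in the longest 3′ UTR, PRKAA1 among them, 46% fell and 17.7% rose, with a median of -0.12. Of these genes, 19 had a lower fold change than PRKAA1, whose fold change chose the set, so its place in the class carries no test. PRKAA1 has no match when the longest coding sequence chooses the transcript. The 2 members that fell past the threshold, PRKAG1 and STK11, had no match, like 7121 tested genes of which 21.2% fell and 29.6% rose. These shares describe genes and were not tested.

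The balance of isoforms within each subunit moved with these changes. Of the summed α FPKM, PRKAA1 made up 74.4, 73.4 and 75.9% in miR-19a libraries, against 88.2, 88.1 and 88.6% in miR-NC libraries, so α1 was the larger part in all 6. The α sum itself was 7.37 ± 0.11 FPKM in miR-19a and 13.8 ± 0.315 FPKM in miR-NC (mean ± SD, n = 3 each), since the difference in PRKAA2 was small on the FPKM scale. PRKAB1 made up 50.3 ± 0.866% of β in miR-19a and 56.4 ± 2.3% in miR-NC (SD, n = 3 each), while the β sum was 15.2 ± 0.826 FPKM in miR-19a and 11.9 ± 0.314 FPKM in miR-NC. PRKAG1 made up 55.3 ± 1.21% of γ in miR-19a and 59.7 ± 1.55% in miR-NC, with a γ sum of 18.1 ± 0.0808 FPKM in miR-19a and 20.9 ± 0.383 FPKM in miR-NC. The α sum was thus below the β and γ sums in every miR-19a library, whereas in miR-NC libraries it lay between β and γ. These shares and sums contain PRKAA1 or follow from the fold changes above, and they carry no test.

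**Figure D4:**
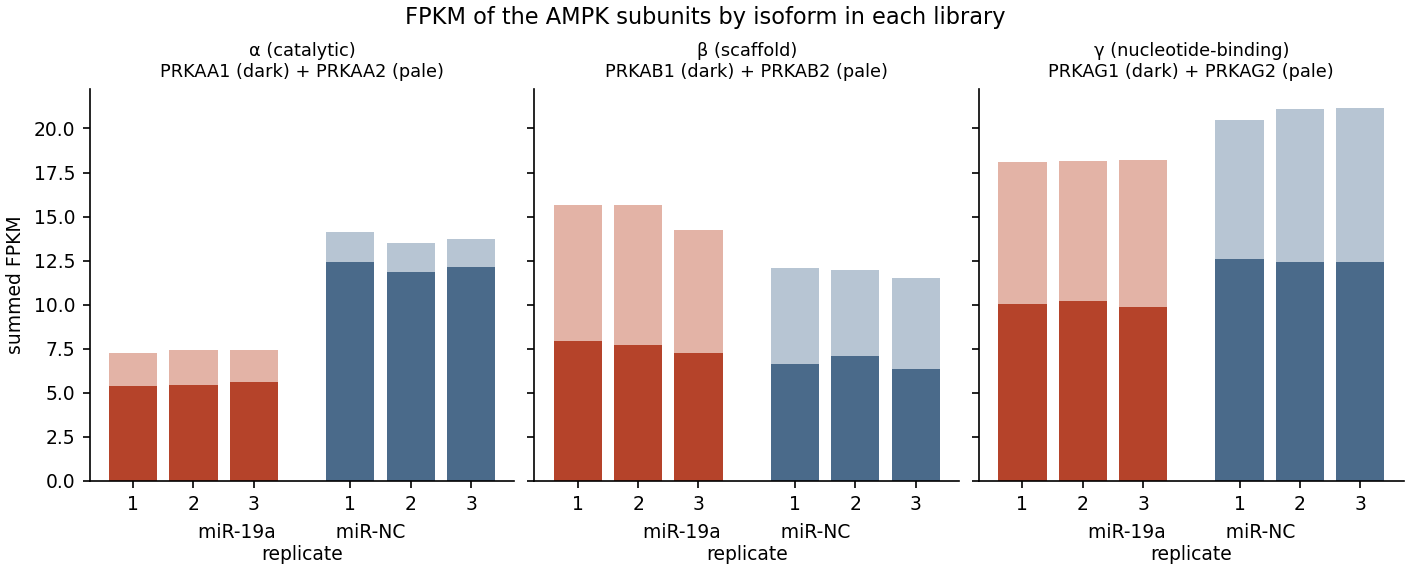
Stacked bars give the FPKM of each subunit's 2 isoforms in each library, from 0. The α bars reach 7.24 to 7.44 FPKM in miR-19a and 13.5 to 14.1 FPKM in miR-NC, while the β bars are taller in miR-19a than in miR-NC.

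Sequence shared between genes bears on how reads can be assigned. The coding sequences of PRKAA1-204 and PRKAA2-201 were identical at 71.6% of aligned bases, those of the β isoforms at 69.9% and those of the γ isoforms at 69.4%. Of 72001 different stretches of 31 nt in the annotated transcripts of the 10 genes, 1 occurred in more than 1 member. Stretches shared with any other gene made up 3.57% of PRKAA1, 5.07% of PRKAB1 and 17.6% of STRADA, and at most 2.15% of each of the others.

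Ordered by FPKM in miR-19a libraries, CAB39 (13.6 ± 0.281) was highest, followed by PRKAG1 (10.0 ± 0.186), PRKAG2 (8.11), PRKAB1 (7.62), PRKAB2 (7.55), CAMKK2 (7.15), STK11 (5.87), PRKAA1 (5.49), PRKAA2 (1.87) and STRADA (1.71). Neighbours from PRKAG2 to CAMKK2, and PRKAA2 and STRADA, overlapped in range, and the other neighbours were separate. In miR-NC libraries CAB39 (12.6 ± 0.537), PRKAG1 (12.5 ± 0.0929) and PRKAA1 (12.2 ± 0.285) overlapped at the top. They were followed by PRKAG2, CAMKK2, STK11 and PRKAB1, where CAMKK2 overlapped STK11 and STK11 overlapped PRKAB1, then by PRKAB2, and last by PRKAA2 and STRADA, which overlapped. PRKAA1 thus stood eighth in miR-19a libraries and in the top group of 3 in miR-NC libraries.

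The 5 other genes whose values over the 6 libraries were most like those of PRKAA1 were WDR45B, AGPAT5, MST1R, SLC6A6 and SUZ12. Likeness is the Euclidean distance between log2(CPM + 1) values after each gene's mean was removed, and it ran from 0.074 for WDR45B to 0.131 for SUZ12. WDR45B, an autophagy protein that binds phosphoinositides, stood at 56.7 ± 1.61 CPM in miR-19a and 126 ± 4.62 CPM in miR-NC, a log2 fold change of -1.15. SUZ12, a core subunit of Polycomb repressive complex 2, stood at 42.5 ± 1.22 CPM in miR-19a and 87.2 ± 2.16 CPM in miR-NC, a log2 fold change of -1.04. With 2 groups of 3 libraries this measure is mostly the size of the fold change.

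Around the members, a list of further subunits, adaptors and kinases held 8 tested genes. Of these, 3 rose and 1 fell, a share of 50% beside 48.4% of all genes tested, with a median log2 fold change of -0.02. STRADB, the paralog of STRADA, rose, with 36.6 ± 2.38 CPM in miR-19a and 25.2 ± 1.64 CPM in miR-NC (log2 fold change 0.54, SE 0.07, edgeR adjusted p = 1.3e-09). Of genes for calmodulin, which switches on CAMKK2, CALM3 rose by 0.56 (SE 0.036) and CALM2 fell by 0.46 (SE 0.037). Calmodulin genes have processed pseudogenes, so the assignment of their reads is uncertain. MAP3K7, which encodes TAK1, rose by 0.18 (SE 0.058, edgeR adjusted p = 0.00933). The muscle subunit gene PRKAG3 was listed at 0 FPKM in all libraries, and CAB39L lay under the filter at 0.43 ± 0.02 FPKM in miR-19a and 0.783 ± 0.0929 FPKM in miR-NC.

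The AMPK-related kinases, other substrates of LKB1, included 5 that rose and 1 that fell among 11 tested, a share of 54.5% beside 48.4% of all genes, with a median of 0.14. NUAK2 had the smallest adjusted p, with 159 ± 1.49 CPM in miR-19a and 123 ± 1.1 CPM in miR-NC (log2 fold change 0.37, SE 0.042, edgeR adjusted p = 1e-11). SNRK rose by 0.42 (SE 0.099), BRSK1 by 0.50 (SE 0.13) and the salt-inducible kinase SIK2 by 0.31 (SE 0.079). MARK2, a kinase of cell polarity and microtubules, fell by 0.43 (SE 0.065).

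Among 14 tested regulators of AMPK 6 rose and 3 fell, a share of 64.3% beside 48.4% of all genes, with a median of 0.08. Sestrins are stress-induced proteins that favour AMPK activity. SESN2 rose and stood at 48.7 ± 0.898 CPM in miR-19a and 27.2 ± 3.02 CPM in miR-NC (log2 fold change 0.84, SE 0.066, edgeR adjusted p = 1.5e-17), and SESN1 rose by 0.49 (SE 0.08). SESN3 lay under the filter and was not tested, at 0.68 ± 0.0624 FPKM in miR-19a and 0.387 ± 0.0603 FPKM in miR-NC. FNIP2, a folliculin partner that binds AMPK, rose by 0.94 (SE 0.1), with 16.4 ± 0.542 CPM in miR-19a and 8.56 ± 0.838 CPM in miR-NC, while folliculin itself, FLCN, fell by 0.39 (SE 0.073). PPP2CB, a catalytic subunit of the phosphatase PP2A, rose by 0.29 (SE 0.041). TRIM28, a ubiquitin ligase that with MAGE proteins targets α1, fell by 0.23 (SE 0.037), and AXIN1, a scaffold that brings LKB1 to AMPK, fell by 0.22 (SE 0.061).

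**Figure D5:**
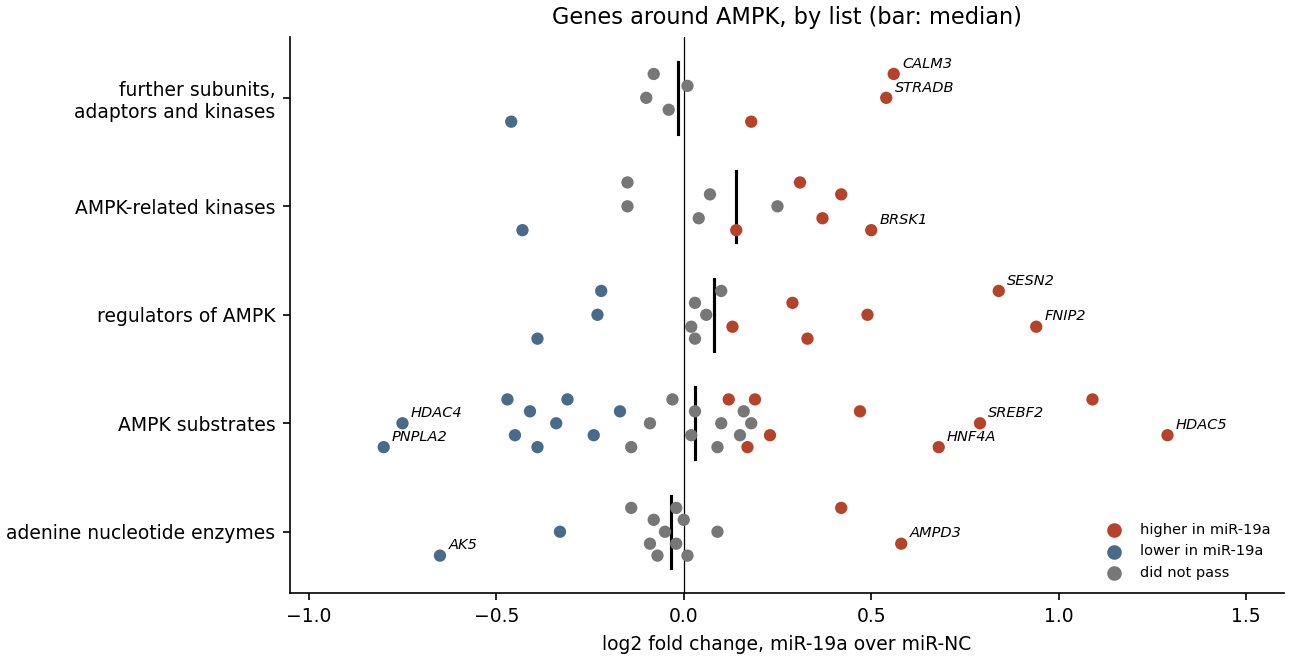
Each dot is a tested gene of a list, placed by its log2 fold change of miR-19a over miR-NC and coloured by call, and the bar is the list's median. Calls lie on both sides of 0 in every list, with HDAC5 at 1.29 farthest to the right and PNPLA2 at -0.80 farthest to the left.

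Transcripts of AMPK substrates, proteins that the kinase phosphorylates, went both ways. Of 29 tested, 9 rose and 10 fell, a share of 65.5% beside 48.4% of all genes, with a median of 0.03. The sterol regulator SREBF2 rose, with 165 ± 3.64 CPM in miR-19a and 95.6 ± 2.48 CPM in miR-NC (log2 fold change 0.79, SE 0.043, edgeR adjusted p = 3.2e-25), and its relative SREBF1 rose by 0.17 (SE 0.043). HDAC5, a class IIa histone deacetylase, rose by 1.29 (SE 0.099), with 21.1 ± 1.31 CPM in miR-19a and 8.61 ± 0.871 CPM in miR-NC, whereas its relative HDAC4 fell by 0.75 (SE 0.073). HNF4A, a nuclear receptor of hepatic and gut epithelium, rose by 0.68 (SE 0.08).

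Of the substrates that fell, PNPLA2, the triglyceride lipase ATGL, did so most, with 38.8 ± 2.89 CPM in miR-19a and 67.3 ± 2.97 CPM in miR-NC (log2 fold change -0.80, SE 0.058, edgeR adjusted p = 6.0e-19). PFKFB3, an enzyme that drives glycolysis, fell by 0.39 (SE 0.039) and GFPT1, the first enzyme of the hexosamine pathway, by 0.41 (SE 0.045). ULK1, the kinase that starts autophagy, had a log2 fold change of -0.03 (SE 0.046, edgeR adjusted p = 0.643). ACACA and TXNIP were on the list but matched no identifier of the table and were not analysed here.

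Of 14 tested enzymes that set the balance of adenine nucleotides, 2 rose and 2 fell, a share of 28.6% beside 48.4% of all genes, with a median of -0.04. AMPD3, an AMP deaminase, rose by 0.58 (SE 0.078), and NT5E, the surface enzyme CD73 that turns AMP into adenosine, by 0.42 (SE 0.047). APRT, which salvages adenine to AMP, fell by 0.33 (SE 0.046), and AK5, an adenylate kinase, by 0.65 (SE 0.13, edgeR adjusted p = 2.4e-05).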

How the data were processed

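RNA of 6 A549 libraries, 3 with miR-19a and 3 with miR-NC, was sequenced as paired reads of 150 nt, and the submitters' processing notes name bcl2fastq 2.17.1.14 for demultiplexing. No source used here names an aligner, a counting tool, a strand setting or a build. The deposited table holds raw counts and, per the file headers, FPKM values rounded to 2 decimals. For 7 of the 10 members the gene lengths implied by both match GENCODE v29 exon unions within rounding; PRKAG1, STK11 and STRADA differ. Symbols came from gene names (51996 identifiers) and GENCODE v29 (342).

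Genes whose FPKM averaged 1 or more (12452) had their counts tested with edgeR 4.0.16 (quasi-likelihood, two-sided, TMM, Benjamini-Hochberg; R 4.3.3). CPM are TMM-scaled over tested genes, and each standard error is the size of the log2 fold change divided by √F. The method was tested on simulated data. Pairs of libraries within a group differed by more than sampling noise (chi-square per gene 1.59 to 4.15). Alternatives were DESeq2 1.42.0, limma 3.58.1 on log2(FPKM + 1) or log2(FPKM + 0.1), other factors, other filters, a replicate block and each library left out. The members and lists were chosen with earlier results of these data known. Named genes are all members, the 5 most like PRKAA1, and from each list at most 4 rising and 4 falling genes with the smallest adjusted p, plus ACACA, SREBF1, ULK1 and TXNIP; some genes the rule names are not reported here. PRKAG3, CAB39L and SESN3 were added after their values were seen. The marker lists held 6 epithelial, 6 alveolar type II, 8 fibroblast, 6 immune and 4 endothelial genes.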

Additional observations from a re-analysis of the deposited data

How the results depend on the processing

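PRKAB1, PRKAB2, PRKAG1 and STK11 kept their direction and call under all 14 alternatives, with log2 fold changes of 0.17 to 0.25, 0.47 to 0.62, -0.32 to -0.29 and -0.29 to -0.24. PRKAA1 lay between -1.15 and -1.02, the last with limma on log2(FPKM + 1), whose pseudocount shrinks fold changes. PRKAA2 lost its call with DESeq2 (0.23) and with limma (0.14 and 0.21 at pseudocounts of 1 and 0.1), and ranged from 0.19 to 0.27 with each library left out. CAB39 lost its call with library totals alone (0.11), DESeq2 (0.12), limma (0.10 and 0.11) and no filter (0.13), and ranged from 0.09 to 0.16 with a library left out. CAMKK2, never called, ranged from -0.05 to 0.00 with a library left out, the last without miR-19a replicate 2 and on the other side of 0. Causes were not tested. With a mean FPKM of at least 5, which leaves out PRKAA2 and STRADA, 4070 of 7251 genes tested were called. Calls then numbered 3 among AMPK-related kinases, 5 among regulators and 2 among adenine nucleotide enzymes. Fewer genes of these lists were tested there, so the lower counts do not mean a lower share called. As a share of counts, with no length scaling, PRKAA1 differed by -16.8 percentage points within α, against -13.7 on FPKM. Members with a match of 7 nt or more numbered 3 when the longest coding sequence chose the transcript and 4 in the longest 3′ UTR. The replicate block gave 5986 called genes against 6023 and changed no call among members. Same-numbered libraries did not deviate together (correlations -0.045 to 0.012, against -0.029 to 0.037 for pairs with different numbers). Deviations from means of 3 libraries cannot exclude a shared culture or preparation, so any pairing is unknown. Depth limits STRADA and PRKAA2 most.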
